A study of Homo sapiens with 20 samples.

Results

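The 10 genes described here encode the proteins that coat single-stranded DNA, clamp the polymerase to its template and trim the lagging strand at the replication fork. They were RPA1, RPA2 and RPA3, PCNA, RFC1 to RFC5, and FEN1, taken by gene symbol, and each was measured by exactly 1 of the 17709 transcript clusters that carry 1 symbol. All 10 clusters had group means above log2 5, the level taken here as low signal, in every group. Levels were measured on 20 Clariom S arrays of total RNA from 3 human tumour lines. Each line was represented by drug-sensitive parental cells and by cells that had acquired resistance to prexasertib, which blocks the checkpoint kinase CHK1. NCI-H520, from a squamous cell lung carcinoma, had 3 parental arrays and 3 arrays of its resistant derivative, which had been selected in culture under rising drug concentrations. SJCRH30 and Rh41 are lines of alveolar rhabdomyosarcoma, a childhood tumour of muscle-like cells. SJCRH30 had 3 arrays of cells grown from a drug-sensitive xenograft, which the study took from a vehicle-treated animal. The other 3 were of cells grown from a xenograft that no longer responded, taken from an animal dosed with prexasertib. These groups therefore also differ in the tumour of origin. Rh41 had 3 parental and 5 resistant arrays. Its cultures were carried separately, in DMSO or in rising concentrations of the drug, as the study describes. For NCI-H520 and SJCRH30 a group was 1 line, so that p-values measure the spread between its cultures. The study describes sub-culture of the lines from SJCRH30 xenografts with prexasertib present. The sources used here do not say whether resistant cells were in drug at harvest.

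RPA, a trimer of the large subunit RPA1 with RPA2 and RPA3, binds the single strands that open at a fork and recruits the ATR kinase, which activates CHK1 when forks stall. RFC, the clamp loader, uses ATP to open the ring of PCNA and close it around primed DNA, where PCNA tethers the replicative polymerases and FEN1, the nuclease that removes the flaps of Okazaki fragments. RFC2 to RFC5 also form the base of alternative loaders in which another large subunit takes the place of RFC1.

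The 8 arrays of Rh41 formed a normalization set of their own and had a narrower spread. The standard deviation of the other set was 1.502 times that of Rh41. The size of a log2 change in Rh41 is therefore not tested against that in another line unless all arrays were first put on a common scale. The nearest genes, given as a description, are taken on the deposited scales as well. The sources do not say which scale lies nearer to true log2 ratios, so every fold below holds for the deposited scale of its line, and its size on the other scale is given with the main results. Over all clusters the correlation was at least 0.983 between arrays of the same group and 0.964 to 0.976 between the parental and resistant arrays of a line. The muscle markers MYOG, DES and ACTC1 had group means of 9.60 or more in the rhabdomyosarcoma lines and 5.39 or less in NCI-H520. They were chosen from a list of 11 measured muscle genes, of which 4 lay under log2 5 in the parental cells of each rhabdomyosarcoma line, MYF5, MYF6 and MYH3 in both. NCI-H520 had SOX2 at 15.6 and EPCAM at 15.98 in parental cells, while the squamous keratins KRT5 and KRT14 lay under log2 5 in both groups. Leukocyte and endothelial lists had array means of 5.04 or less in every group, and the fibroblast list of 6.07 or less. Single fibroblast genes lay higher, such as PDGFRA at 9.21 in parental SJCRH30 and COL1A2 at 8.24 in parental Rh41. In the tests below a gene rose or fell when the change exceeded 1.5-fold with an adjusted p under 0.05 over all 17709 clusters (limma, Benjamini-Hochberg).

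In resistant NCI-H520 cells 8 of the 10 genes rose and 0 fell. PCNA, FEN1, RFC3, RFC5, RFC2, RPA1, RPA2 and RPA3 rose, in that order of size, by between 8.34-fold and 1.71-fold on the deposited scale. With the narrower value distribution of Rh41 the same arrays gave 3.14-fold for PCNA, 2.35-fold for FEN1, 1.91-fold for RFC3 and 1.85-fold for RFC5. RFC2, RPA1 and RPA2 came to 1.76-fold, 1.73-fold and 1.57-fold, and RPA3, at 1.31-fold, no longer passed. RFC1 and RFC4 had log2 changes of 0.54 (SE 0.21) and 0.20 (SE 0.20) that did not pass. Over all clusters 10.1% rose and 9.90% fell, and the median log2 change was 1.505 for the 10 genes and 0.0065 for all clusters. In the same 8 genes all resistant arrays lay above all parental arrays, which held for 17.7% of clusters, while the reverse held for 16.7% of clusters and for 0 of the 10 genes. A list of 15 cell division genes moved in the same arrays, with 14 rising and 0 falling (median 1.53), led by the mitotic kinesin KIF11 at 1.92 and the kinase CDK1 at 1.78. Its array means were 10.2 to 10.4 in parental and 11.6 to 11.7 in resistant cells. Genes of a list for squamous lung, which also held general epithelial genes such as CDH1, moved in these arrays too. Of these 5 of 10 rose and 0 fell. CDH1 rose by 3.20, KRT18 by 1.70, KRT8 by 1.57, EPCAM by 0.88 and SOX2 by 0.74 on the log2 scale. The squamous keratins KRT5 (-0.076) and KRT14 (-0.33) did not pass, nor did DSG3 (0.71), DSC3 (0.56) and PKP1 (0.26). In each group 4 of the 10 lay under log2 5. Array means of the list were 8.93 to 9.06 in parental and 9.86 to 9.93 in resistant cells. The part of either list in the result was not tested.

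In resistant SJCRH30 cells 4 of the 10 genes rose and 1 fell. RPA1, RFC3, RFC2 and RFC4 rose by 2.99-fold, 2.60-fold, 2.15-fold and 1.66-fold, and RFC1 was 2.19-fold lower, on the deposited scale. With the value distribution of Rh41 the rises were 1.81-fold, 1.68-fold, 1.51-fold and 1.33-fold, the last under the limit, and RFC1 was 1.53-fold lower. The other 5 genes, among them PCNA and FEN1, did not pass. Over all clusters 9.42% rose and 9.28% fell, and the median log2 change was 0.35 for the 10 genes and 0.0070 for all clusters. All resistant arrays lay above all parental arrays in the 4 rising genes, against 17.4% of clusters, and below them in RFC1 and FEN1, against 16.8% of clusters. The cell division list went the other way in SJCRH30, with 1 gene rising and 7 falling (median -0.50). BUB1, a spindle checkpoint kinase, rose by 0.86, and the cyclins CCNA2 and CCNB2 fell by 1.08 and 0.96 on the log2 scale. Array means of that list were 12.4 to 12.5 in parental and 12.05 to 12.2 in resistant cells. Of the 11 muscle genes 2 rose and 2 fell, MYH8 rising by 1.26 and ACTC1 falling by 1.25, and their array means were 8.69 to 8.88 and 8.75 to 8.78. The part of either list was not tested.

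In resistant Rh41 cells 1 of the 10 genes fell and 0 rose. FEN1 was 2.33-fold lower than in parental cells on the deposited scale, 3.55-fold lower with all arrays normalized together and 4.70-fold lower with the value distribution of the other lines. PCNA and RFC4 had log2 changes of -0.33 (SE 0.087, adjusted p = 0.0201) and -0.43 (SE 0.10, adjusted p = 0.0128), which lay under the 1.5-fold limit on the deposited scale of Rh41. With all 20 arrays quantile-normalized together RFC4 (-0.63) and RPA3 (-0.75) passed as well as FEN1, and on the wider scale of the other lines PCNA (-0.59) also did. Over all clusters 5.69% rose and 3.08% fell, and the median log2 change was -0.21 for the 10 genes and -0.035 for all clusters. All 5 resistant arrays lay below all 3 parental arrays in FEN1, PCNA, RFC2 and RFC4, against 12.6% of clusters, and in 0 of the 10 genes did they all lie above, against 13.6% of clusters. In the cell division list 0 genes rose and 1 fell, CCNA2, by 0.88 (median -0.16 for the list). Of the 11 muscle genes 4 rose and 1 fell in resistant Rh41 cells, with MYH8 rising by 1.92 and ACTC1 by 1.26 and MYOD1 falling by 0.62. MYH8 rose from a parental mean of 4.09, which is low signal. MYH3, which also rose, was under log2 5 in both groups (3.43 and 4.15). Array means of the muscle list went from 7.30 to 7.40 in parental to 7.69 to 7.91 in resistant cells. The part of either list was not tested.

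**Figure D1:**
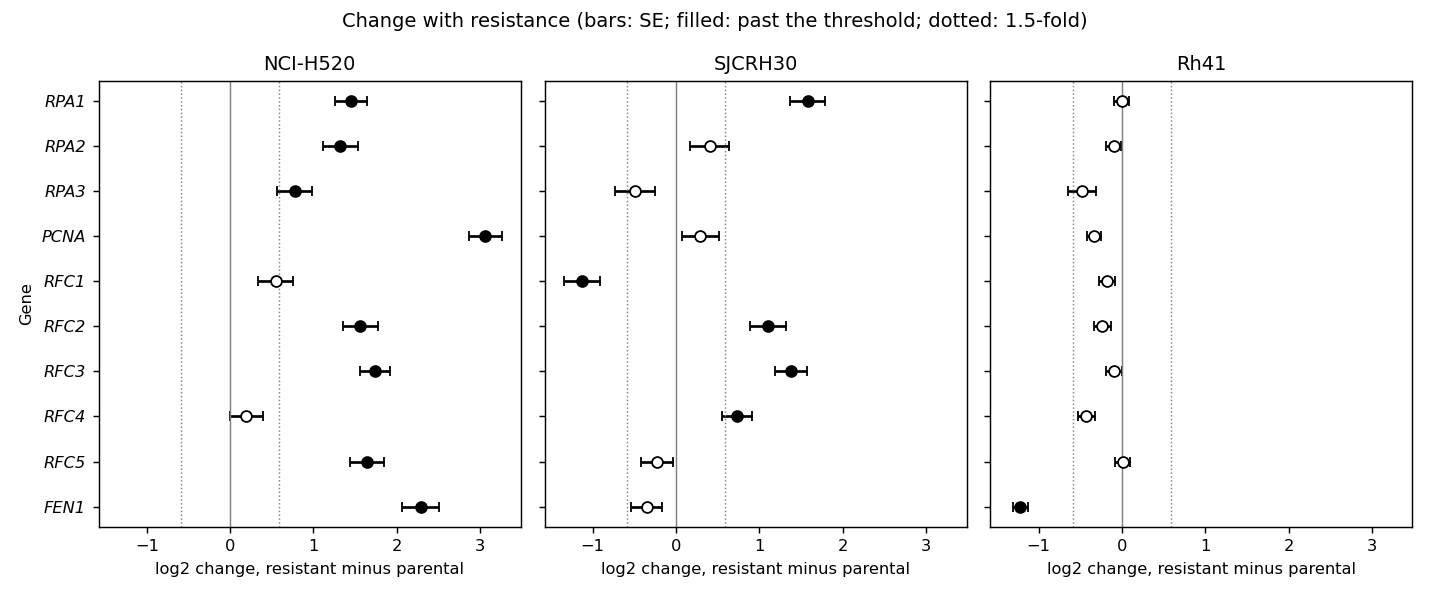
Log2 change of each gene (resistant minus parental) in NCI-H520, SJCRH30 and Rh41, as fitted values with their SE on the deposited scale of each line; filled points passed the test and dotted lines mark 1.5-fold. All 10 points lay above 0 in NCI-H520, whereas in Rh41 only RFC5, at 0.0076, did; the x scale is the same in all panels although the Rh41 values are narrower.

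The RPA subunits were taken first. RPA1, the large subunit with the main DNA-binding domains, had log2 values of 11.28, 11.22 and 11.30 on the parental NCI-H520 arrays and 13.003, 12.56 and 12.59 on the resistant arrays. In SJCRH30 its values were 10.67, 11.08 and 11.30 in parental and 12.44, 12.65 and 12.70 in resistant cells. In both lines every resistant array lay more than 1 log2 unit above every parental array. The log2 change was 1.45 (SE 0.19, adjusted p = 0.000261) in NCI-H520 and 1.58 (SE 0.21, adjusted p = 0.000216) in SJCRH30. These changes differed by -0.13 (NCI-H520 minus SJCRH30, SE 0.28, adjusted p = 0.798). In Rh41 the parental values were 8.92, 8.87 and 8.83 and the resistant values ran from 8.75 to 8.94, with a change of -0.00072 (SE 0.090). The Rh41 groups overlapped, and the sign of this change turned under other scalings.

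RPA2, the subunit that is phosphorylated when forks stall, had means of 7.20 ± 0.26 and 8.52 ± 0.25 (SD, n = 3 each) in parental and resistant NCI-H520 cells. Its change of 1.32 (SE 0.21) had an adjusted p of 0.000931. In SJCRH30 the means were 9.63 ± 0.30 and 10.03 ± 0.37 (SD, n = 3 each), the arrays overlapped, and the change of 0.41 (SE 0.23) did not pass. In Rh41 the change was -0.097 (SE 0.091). The difference between the NCI-H520 and SJCRH30 changes of RPA2 was 0.92 (SE 0.33, adjusted p = 0.0510), just short of the threshold. It passed at 1.05 to 1.11 without parental replicate 1 or resistant replicate 3 of either line (adjusted p = 0.0233 to 0.0361). With all arrays it also passed when clusters under log2 5 were left out (adjusted p = 0.0346). The same held with a trended, robust eBayes prior (adjusted p = 0.0304). The RPA2 difference did not pass on the scale of the Rh41 arrays (0.43, adjusted p = 0.142). Nor did it pass with all 20 arrays quantile-normalized together, or when clusters without exactly 1 symbol were tested as well.

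RPA3, the smallest subunit, had values of 7.96, 7.94 and 7.65 in parental and 8.46, 8.98 and 8.44 in resistant NCI-H520 cells. The resistant arrays lay above the parental ones, and the change was 0.78 (SE 0.21, adjusted p = 0.0217). That call was lost without parental replicate 3, where the change was 0.68 (adjusted p = 0.0874), and without resistant replicate 2, where it was 0.60 (adjusted p = 0.0878). It was also lost when the values were rescaled to the spread of Rh41 (0.39, adjusted p = 0.0781). In SJCRH30 the parental values were 7.97, 8.01 and 7.96 and the resistant values 7.10, 8.04 and 7.32. Resistant replicate 2 thus lay with the parental arrays, and the change of -0.49 (SE 0.24) passed only when this array was left out (-0.77, adjusted p = 0.0298). In Rh41 the resistant values ran from 5.65 to 6.47 against 6.47 to 6.78 in parental cells (change -0.48, SE 0.17, adjusted p = 0.0741). The changes of RPA3 in NCI-H520 and SJCRH30 differed by 1.27 (SE 0.33, adjusted p = 0.00844).

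Because the subunits of a complex were read on the same array, their balance was compared within arrays as a log2 difference. In SJCRH30 RPA1 minus RPA2 went from 1.39 ± 0.079 in parental to 2.56 ± 0.24 in resistant cells (SD, n = 3 each), and RPA1 minus RPA3 went from 3.03 ± 0.33 to 5.11 ± 0.44. The groups did not overlap for either, and the shifts were 1.18 and 2.07. Exact two-sided permutation tests gave p = 0.1 for each, the smallest p that 3 against 3 arrays allow, and 0.171 after Benjamini-Hochberg adjustment over 12 such tests. In NCI-H520 RPA1 minus RPA2 shifted by 0.13 with overlapping arrays (exact p = 0.6). RPA1 minus RPA3 shifted by 0.67 in NCI-H520 (exact p = 0.2) and by 0.48 in Rh41 (exact p = 0.0357, adjusted 0.171), where the arrays did not overlap. RPA2 minus RPA3 shifted by 0.55, 0.90 and 0.38 in NCI-H520, SJCRH30 and Rh41, with exact permutation p = 0.1, 0.2 and 0.0714. A shift of such a difference describes an unequal change of the subunits on the arrays and not which of them changed. No shift had an adjusted p under 0.171 in these permutation tests.

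PCNA, the sliding clamp, had values of 9.30, 8.86 and 9.24 on the parental NCI-H520 arrays and 12.18, 12.33 and 12.07 on the resistant arrays. The lowest resistant array lay over 2 log2 units above the highest parental one, and the change of 3.06 (SE 0.20, adjusted p = 1.29e-06) ranked 56 from the top among all clusters. In SJCRH30 the values were 13.09, 13.20 and 12.68 in parental and 12.95, 13.27 and 13.62 in resistant cells. The SJCRH30 groups overlapped and differed by 0.29 (SE 0.22, adjusted p = 0.434). In Rh41 the parental values were 9.50, 9.58 and 9.52 and the resistant values ran from 9.13 to 9.26, all below the parental ones. Parental PCNA was 3.86 higher in SJCRH30 than in NCI-H520 on the log2 scale (SE 0.21, adjusted p = 3.85e-11). The resistant NCI-H520 mean of 12.2 still lay 0.80 below the parental SJCRH30 mean (adjusted p = 0.00495).

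The promoters of PCNA, of the clamp loader genes RFC3 and RFC1, which moved apart in SJCRH30, and of FEN1, the only one of the 10 genes that fell in Rh41, are shown to let their sequences be read beside these values. Each is a RefSeq window on GRCh38.p14 of 250 bases before and 50 after a transcript start, in the direction of the gene. Capitals mark TTCCCGC or TTGGCGC, cores of the sites bound by E2F factors, and CCAAT, the box bound by NF-Y, on either strand. These motifs do not overlap one another in the windows shown, and they were chosen after the sequences had been seen.
PCNA, chr20:5126573-5126872, minus strand: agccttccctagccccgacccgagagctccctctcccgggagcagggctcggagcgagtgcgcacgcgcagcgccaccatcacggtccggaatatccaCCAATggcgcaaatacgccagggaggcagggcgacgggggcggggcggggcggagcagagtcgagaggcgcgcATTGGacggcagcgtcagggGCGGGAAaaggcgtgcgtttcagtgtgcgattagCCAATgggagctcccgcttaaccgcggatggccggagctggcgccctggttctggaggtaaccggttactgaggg
RFC3, chr13:33817899-33818198, plus strand: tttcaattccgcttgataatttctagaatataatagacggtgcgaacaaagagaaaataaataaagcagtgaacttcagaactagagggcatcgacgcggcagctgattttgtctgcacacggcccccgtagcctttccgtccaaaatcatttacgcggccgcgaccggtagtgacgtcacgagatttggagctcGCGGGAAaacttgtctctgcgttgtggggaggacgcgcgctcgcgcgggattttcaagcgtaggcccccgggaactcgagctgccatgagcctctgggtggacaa
RFC1, chr4:39366313-39366612, minus strand: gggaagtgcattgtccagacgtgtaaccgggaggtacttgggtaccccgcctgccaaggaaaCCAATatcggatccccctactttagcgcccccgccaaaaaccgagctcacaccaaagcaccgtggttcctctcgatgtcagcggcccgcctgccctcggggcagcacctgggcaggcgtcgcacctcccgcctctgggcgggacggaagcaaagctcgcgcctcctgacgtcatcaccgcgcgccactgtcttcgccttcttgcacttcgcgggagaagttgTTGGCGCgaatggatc
FEN1, chr11:61792661-61792960, plus strand: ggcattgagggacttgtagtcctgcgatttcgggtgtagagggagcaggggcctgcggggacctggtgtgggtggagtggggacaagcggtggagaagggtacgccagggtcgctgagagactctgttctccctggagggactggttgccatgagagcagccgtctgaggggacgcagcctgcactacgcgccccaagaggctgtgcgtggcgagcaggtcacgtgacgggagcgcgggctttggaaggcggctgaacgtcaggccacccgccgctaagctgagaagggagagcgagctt

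Windows were found for 8 of the 10 genes, and PCNA had a window for each of 2 starts, of which the upstream one is shown. TTCCCGC occurred in PCNA, in its upstream window alone, and in RFC2, RFC3 and RFC4, against 6.55% of 35116 promoters of the same length. TTGGCGC occurred in RPA1 and RFC1, against 3.04%. CCAAT occurred in RPA1, PCNA, RFC1 and RFC5, against 34.6%. The window of FEN1 held none of these motifs, and that of RFC4 held TTCCCGC at 2 places. The relation of the matches to the changes was not tested. A match is only a description of the letters and was not tested as a site. The shares count single windows and not genes. Because the motifs were chosen after the sequences had been seen, the shares give no test of enrichment.

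The clamp loader subunits did not move as a block. RFC1, the large subunit that opens the PCNA ring in the replicative loader, had values of 11.99, 11.82 and 12.37 in parental and 11.17, 10.66 and 10.95 in resistant SJCRH30 cells. All resistant arrays lay below all parental arrays, and the change was -1.13 (SE 0.22, adjusted p = 0.00262). In NCI-H520 the values were 10.85, 10.29 and 10.41 in parental and 11.13, 10.85 and 11.21 in resistant cells. The highest parental array reached the lowest resistant one, and the change of 0.54 (adjusted p = 0.0982) passed only without parental replicate 1 (0.71, adjusted p = 0.0426). In Rh41 the change was -0.18 (SE 0.097) with overlapping arrays. The NCI-H520 and SJCRH30 changes of RFC1 differed by 1.68 (SE 0.30, adjusted p = 0.000532).

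RFC3, a small subunit of the loader, rose in both lines on the wider scale. Its values were 8.63, 8.55 and 8.76 in parental and 10.25, 10.53 and 10.37 in resistant NCI-H520 cells, a change of 1.74 (SE 0.18, adjusted p = 4.73e-05). In SJCRH30 they were 10.96, 11.11 and 10.96 in parental and 12.33, 12.22 and 12.61 in resistant cells, a change of 1.38 (SE 0.19, adjusted p = 0.000290). No array of one group reached the other in either line. RFC2, another small subunit and an ATPase of the loader, had changes of 1.56 (SE 0.21) and 1.10 (SE 0.22) in these lines, and its resistant SJCRH30 arrays lay within 11.05 to 11.14. The changes in NCI-H520 and SJCRH30 differed by 0.36 (SE 0.25) for RFC3 and 0.46 (SE 0.31) for RFC2, and neither difference passed. In Rh41 RFC2 went from 8.21 ± 0.0046 (SD, n = 3) to 7.98 ± 0.13 (SD, n = 5), a change of -0.23 (SE 0.099, adjusted p = 0.126), and RFC3 had a change of -0.095 (SE 0.093).

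RFC4 and RFC5, the remaining small subunits, were each called in 1 line. RFC5 rose in NCI-H520 from 10.3 ± 0.26 to 11.9 ± 0.18 (SD, n = 3 each), a change of 1.64 (SE 0.20, adjusted p = 0.000166). In SJCRH30 its change was -0.23 (SE 0.19) and in Rh41 0.0076 (SE 0.087), both with overlapping arrays, and the NCI-H520 and SJCRH30 changes differed by 1.87 (SE 0.27, adjusted p = 6.75e-05). RFC4 rose in SJCRH30, where the parental values were 12.43, 12.31 and 12.15 and the resistant values 13.001, 12.98 and 13.11. This change of 0.73 (SE 0.18, adjusted p = 0.0133) came to 0.41 after rescaling to the spread of Rh41, which is under 1.5-fold. In NCI-H520 RFC4 was already at 13.6 ± 0.083 in parental cells, above its parental level in SJCRH30, and stood at 13.8 ± 0.26 in resistant cells (SD, n = 3 each). The RFC4 changes of these lines differed by -0.54 (SE 0.26, adjusted p = 0.151). In Rh41 its parental values were 9.42, 9.51 and 9.62 and the resistant values 8.96 to 9.23.

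The balance of RFC1 against the mean of RFC2 to RFC5 within an array fell by 1.88 in SJCRH30, from 0.95 ± 0.26 to -0.93 ± 0.23 (SD, n = 3 each), and by 0.74 in NCI-H520, from 0.38 ± 0.29 to -0.36 ± 0.24. In neither line did the groups overlap, and exact permutation p was 0.1 for each, the smallest possible, with 0.171 after adjustment. In Rh41 this balance went from -0.68 ± 0.059 (n = 3) to -0.68 ± 0.091 (SD, n = 5), a shift of 0.0082 (exact p = 0.893). On the scale of the other set the shifts were -1.02 in SJCRH30 and -0.39 in NCI-H520.

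**Figure D2:**
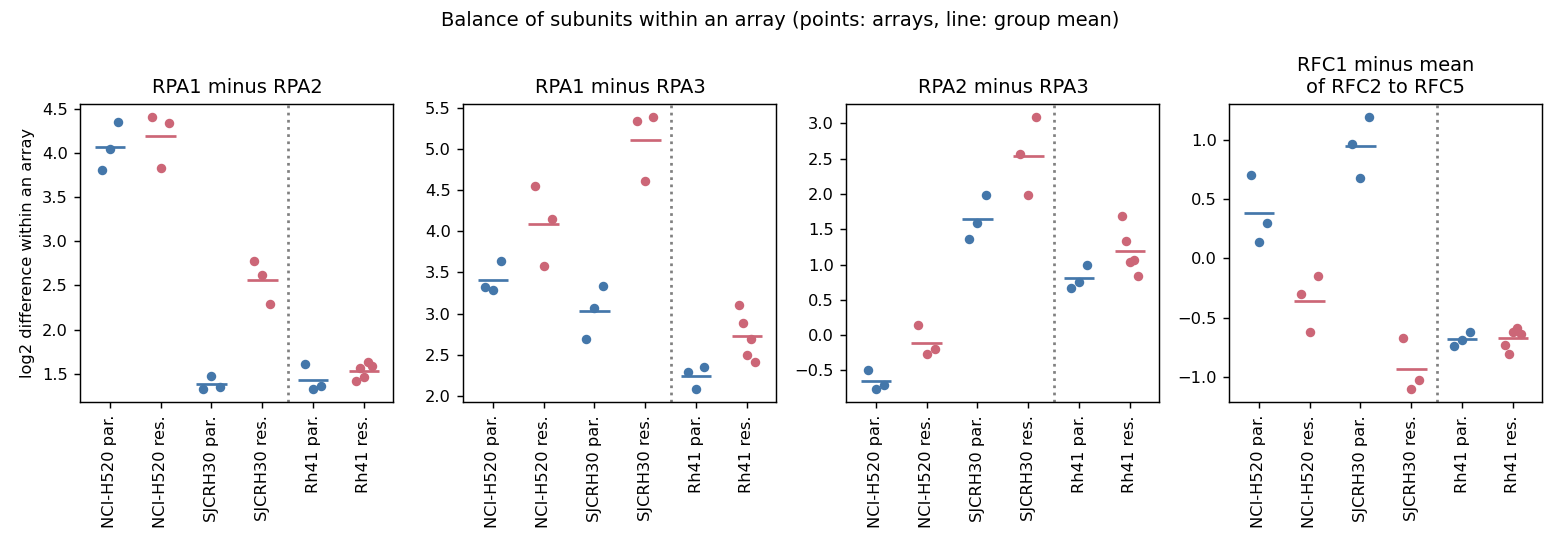
Log2 difference between subunits within each array, for the RPA pairs and for RFC1 against the mean of RFC2 to RFC5; points are arrays, horizontal lines group means, and the dotted line sets off Rh41, which is on a narrower scale. The RFC1 balance in SJCRH30 went from a mean of 0.95 in parental to -0.93 in resistant arrays, while the Rh41 groups overlapped.

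FEN1, the flap nuclease, moved in opposite directions in NCI-H520 and Rh41. In NCI-H520 its values were 9.33, 8.72 and 8.62 in parental and 11.24, 11.05 and 11.24 in resistant cells, a change of 2.29 (SE 0.22, adjusted p = 2.61e-05). In Rh41 they were 9.60, 9.77 and 9.81 in parental cells and 8.50, 8.52, 8.56, 8.46 and 8.47 in resistant cells, a change of -1.22 (SE 0.091, adjusted p = 6.60e-06). All 5 resistant Rh41 cultures lay more than 1 log2 unit below all parental ones, and their range of 8.46 to 8.56 was narrower than the parental one. In SJCRH30 the values were 11.75, 12.004 and 11.88 in parental and 11.63, 11.37 and 11.58 in resistant cells. Those groups did not overlap either, but the change of -0.35 (SE 0.19, adjusted p = 0.227) did not pass. Among all clusters of Rh41 the change of FEN1 ranked 17664 of 17709 from the top.

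**Figure D3:**
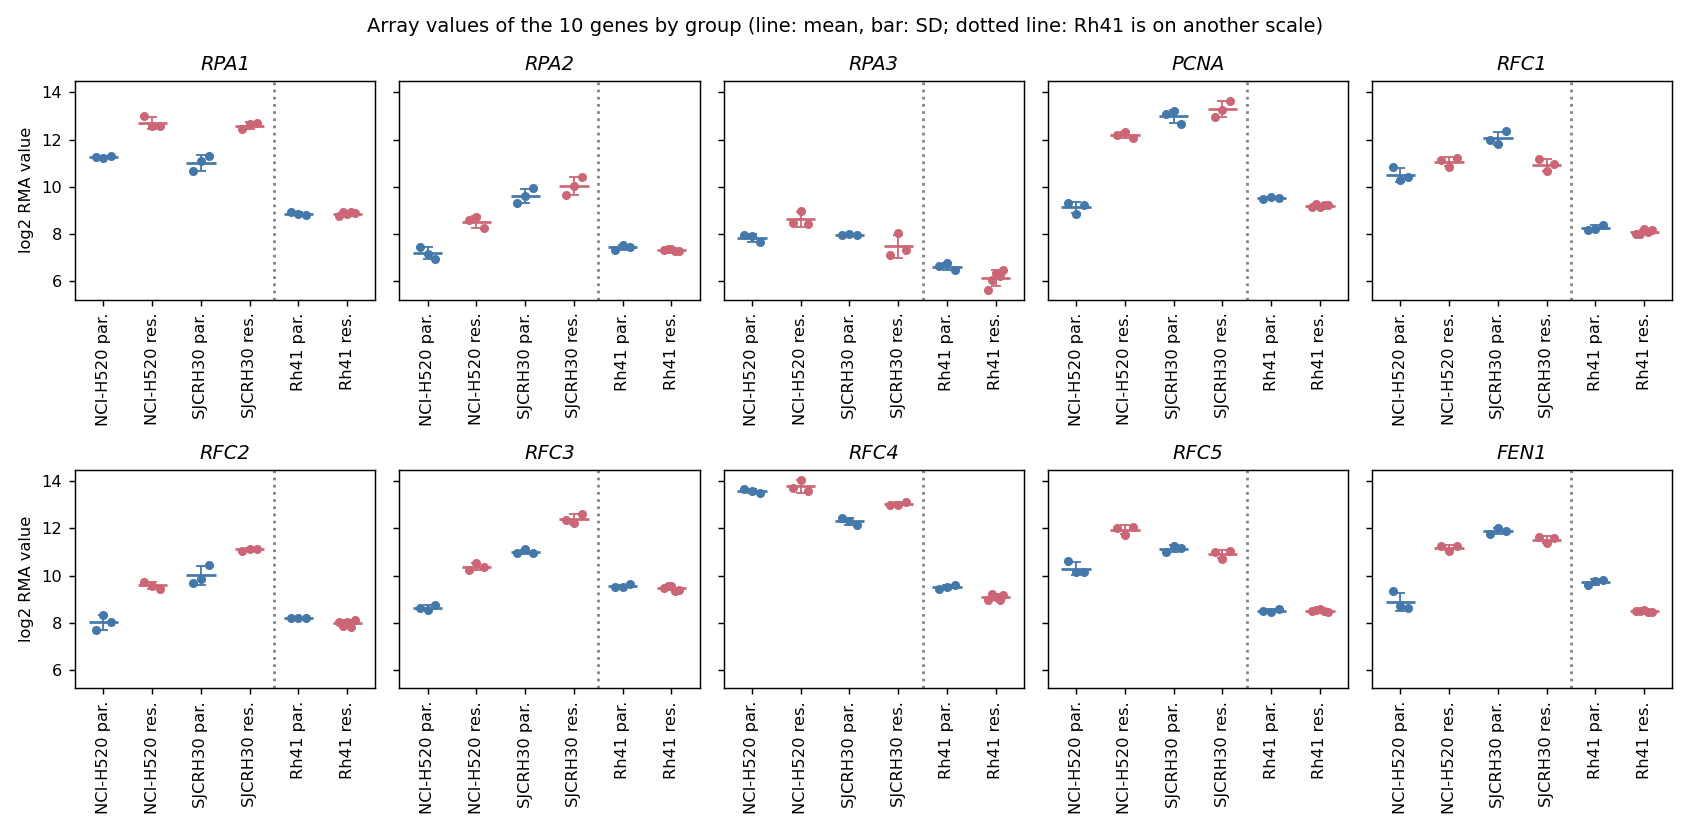
Log2 RMA value of each gene on every array, by line and by parental (blue) or resistant (red) group, with the group mean and SD; Rh41, right of the dotted line, is on a narrower scale. PCNA and FEN1 were lower on all parental NCI-H520 arrays than on all other NCI-H520 and SJCRH30 arrays, and in Rh41 the 5 resistant FEN1 values of 8.46 to 8.56 lay below the parental 9.60 to 9.81.

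Whether a change differed between lines was tested directly. The change in NCI-H520 exceeded that in SJCRH30 for 5 of the 10 genes, namely PCNA (2.77, SE 0.30), FEN1 (2.64, SE 0.29), RFC5, RFC1 and RPA3, and was smaller for 0, against 11.8% and 11.3% of all clusters. On a common scale for all 20 arrays the change in Rh41 was below that in NCI-H520 for all 10 genes, against 11.9% of clusters, and above it for 0, against 13.2%. FEN1 (-3.69, SE 0.21) and PCNA (-2.99, SE 0.21) differed most, and RFC1 (-0.71, SE 0.23, adjusted p = 0.0230) was the weakest. The RFC1 difference lost its call without parental replicate 3 of Rh41 (-0.62) and without parental replicate 2 (-0.62), parental replicate 3 (-0.67) or resistant replicate 3 (-0.65) of NCI-H520. Between Rh41 and SJCRH30, both rhabdomyosarcoma lines, 6 genes had the lower change in Rh41 and 1 the higher, against 10% and 12% of clusters. The 6 were FEN1 (-1.54, SE 0.21), RPA1 (-1.29, SE 0.20), RFC3 (-1.26, SE 0.19), RFC2 (-1.25, SE 0.23), RFC4 (-1.24, SE 0.20) and PCNA (-0.73, SE 0.21), and the 1 was RFC1 (0.66, SE 0.23, adjusted p = 0.0385). The comparisons share arrays, and Rh41 was normalized apart, so that line and normalization set cannot be told apart in the differences that involve Rh41. The PCNA difference from SJCRH30 lost its call without parental or resistant replicate 3 of SJCRH30 (-0.60 and -0.59). The RFC1 difference from SJCRH30 lost it without parental replicate 1 (0.59) or 2 (0.63) or resistant replicate 3 (0.62), 4 (0.66) or 5 (0.63) of Rh41, and without parental replicate 1 (0.69) or 3 (0.53) or resistant replicate 2 (0.55) or 3 (0.67) of SJCRH30.

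**Figure D4:**
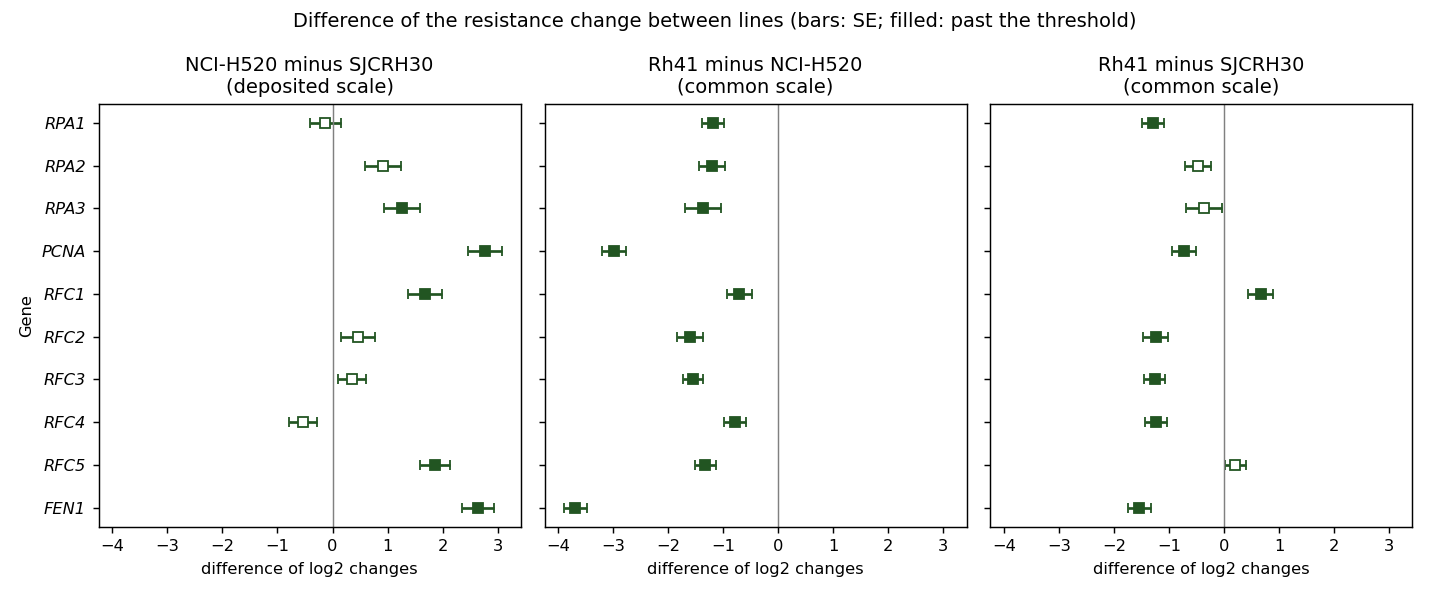
Difference of the log2 resistance change between lines for each gene, with its SE, on the deposited scale for NCI-H520 minus SJCRH30 and on a common scale for the contrasts with Rh41; filled points passed the test. All 10 points of Rh41 minus NCI-H520 lay below 0, from -3.69 for FEN1 to -0.71 for RFC1.

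The levels of the parental lines are the starting points of these changes. The same parental arrays enter both, so levels and changes are not independent. On the scale that NCI-H520 and SJCRH30 share, 7 of the 10 genes were higher in parental SJCRH30 and 1 was lower, against 22.2% and 22.1% of clusters. PCNA was followed by FEN1 (2.99, SE 0.20), RPA2 (2.43, SE 0.23), RFC3 (2.36, SE 0.18), RFC2 (1.98, SE 0.22), RFC1 (1.54, SE 0.22) and RFC5 (0.85, SE 0.19), and RFC4 was lower by a difference of -1.28 (SE 0.18). RPA1 and RPA3 differed by -0.25 and 0.13 with overlapping arrays and did not pass. For PCNA, RPA2, RFC2 and RFC3 the order of group means was parental NCI-H520, resistant NCI-H520, parental SJCRH30 and resistant SJCRH30. Among the neighbours in that order only parental and resistant SJCRH30 cells for PCNA and RPA2, and resistant NCI-H520 and parental SJCRH30 cells for RFC2, were not told apart by the test. For FEN1 parental NCI-H520 cells (8.89) stood apart, and resistant NCI-H520 (11.2), resistant SJCRH30 (11.5) and parental SJCRH30 (11.9) followed with gaps of 0.35 each that did not pass. For RPA1 the parental groups (11.01 and 11.3) formed the lower and the resistant groups (12.6 and 12.7) the upper level, with no difference called within either. RFC1 had its highest mean in parental SJCRH30 (12.1), and the other 3 groups (10.5 to 11.1) followed without a called gap between neighbours. RPA3 was highest in resistant NCI-H520 (8.63), above 3 groups of 7.49 to 7.98 whose neighbours did not differ. RFC4 was highest in NCI-H520, whose groups did not differ from each other, followed by resistant SJCRH30 (13.03) and parental SJCRH30 (12.3). The gap of 0.55 between resistant SJCRH30 and parental NCI-H520 was under 1.5-fold and was not called. RFC5 was highest in resistant NCI-H520 (11.9) and lowest in parental NCI-H520 (10.3), with the SJCRH30 groups (10.9 and 11.1) between them and not told apart.

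Partners of these proteins were counted from lists drawn up from general knowledge, but with earlier results of these data known. The shares of all clusters that rose and fell, for reading these counts, were 10.1% and 9.90% in NCI-H520, 9.42% and 9.28% in SJCRH30, and 5.69% and 3.08% in Rh41. Of 30 measured partners of PCNA 14 rose and 2 fell in NCI-H520 (median log2 change 0.75), 2 rose and 8 fell in SJCRH30 (median -0.22), and 0 rose and 4 fell in Rh41 (median -0.11). The 2 falls in NCI-H520 and the 2 rises in SJCRH30 were a smaller share of the list than of all clusters. UHRF1, which recruits the maintenance DNA methyltransferase, rose by 2.80 in NCI-H520 and 1.15 in SJCRH30, and DTL, which targets proteins bound to PCNA for degradation, rose by 2.44 in NCI-H520. In SJCRH30 USP1, which removes ubiquitin from PCNA, rose by 0.99, and UBE2A, a ubiquitin-conjugating enzyme that acts on PCNA, and CHAF1B, a histone chaperone subunit, fell by 2.16 and 1.38. RNASEH2B and HLTF fell by 0.80 and 0.59 in NCI-H520, and HLTF and the ligase LIG1 fell by 0.94 and 0.72 in Rh41.

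Of 14 measured partners of RPA 5 rose and 0 fell in NCI-H520, 3 rose and 0 fell in SJCRH30, and 0 rose and 2 fell in Rh41 (medians 0.088, -0.22 and -0.041). All-cluster shares for the directions with calls were 10.1%, 9.42% and 3.08%, and counts this small in a list of 14 are given as a description. RFWD3, a ubiquitin ligase that acts on RPA, and TIPIN, a fork protection factor, rose by 2.39 and 1.96 in NCI-H520. The helicase WRN rose by 1.60 in SJCRH30 and fell by 0.69 in Rh41, the helicase BLM rose by 0.87 in SJCRH30, and HELB fell by 0.59 in Rh41. Of the 10 genes of alternative loaders and the checkpoint clamp 4 rose and 0 fell in NCI-H520, 2 rose and 2 fell in SJCRH30, and 1 rose and 0 fell in Rh41 (medians 0.71, 0.041 and -0.23). In a list of 10, with all-cluster shares of 9.42% and 9.28% in SJCRH30 and 5.69% for rises in Rh41, the counts in those lines lay within about 1 gene of the background. DSCC1, of the cohesion loader, rose by 1.46 in NCI-H520 and 0.71 in SJCRH30, and ATAD5, of the loader that unloads PCNA, rose by 1.41 in NCI-H520. RAD17, which takes the place of RFC1 in the checkpoint loader, fell by 1.18 in SJCRH30, and RAD1, a subunit of the clamp it loads, fell by 0.74. RAD9B rose by 1.03 in SJCRH30 and 0.84 in Rh41, from parental means of 4.04 and 3.49 that are both low signal, and in Rh41 the resistant mean was under log2 5 as well.

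Genes whose 3 log2 changes lay nearest to those of RPA1, RFC2, RFC3 and FEN1, the genes called in at least 2 lines, were taken by Euclidean distance over the 3 lines as a description. Changes were taken on the deposited scales, where the narrower Rh41 values weigh less. NUF2 lay nearest to both RPA1 (distance 0.16) and RFC3 (0.21), with changes of 1.58, 1.49 and -0.0083 in NCI-H520, SJCRH30 and Rh41, and C9orf72 and MCM6 came next for RPA1. SLC20A2, GADD45G and TTF2 lay nearest to RFC2, at distances of 0.12 to 0.19, and FOXA1 and GADD45G followed NUF2 for RFC3. Near FEN1 the distances were larger, at 0.41 for SRGAP1, 0.51 for ARHGEF3 and 0.59 for CDK2. With all arrays normalized together, an alternative chosen after seeing the data, 2 of the 3 nearest genes were shared for RPA1, RFC2 and RFC3 and 1 of 3, SRGAP1, for FEN1. NUF2 stayed first for RPA1 (0.12) and RFC3 (0.20), SGMS2 came first for RFC2 (0.10), and SULF1 and TIMELESS followed SRGAP1 for FEN1. On the deposited scale RFC1 was called in SJCRH30 alone, as RFC4 was, and PCNA, RPA2, RPA3 and RFC5 in NCI-H520 alone.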

How the data were processed

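Total RNA was labelled with biotin and hybridized to Clariom S arrays, and the deposited log2 values were computed by the authors with RMA and quantile normalization (software version not given in the sources used here). The sorted values were the same within 0.01 among the 8 Rh41 arrays and among the other 12 arrays, and no 2 arrays had identical values. Of 21448 clusters, 17709 with exactly 1 symbol in the platform annotation were tested. Resistant and parental arrays were compared within a line by limma (version 3.58.1, R 4.3.3) using lmFit and eBayes. Tests were two-sided, p-values were adjusted by Benjamini-Hochberg across the tested clusters, and the threshold was 1.5-fold with an adjusted p of 0.05. Differences between NCI-H520 and SJCRH30 used 1 fit of 12 arrays, and those with Rh41 a fit of all 20 arrays after joint quantile normalization. SE are moderated. Ratios within arrays were tested by exact permutation. The fit was tested on simulated data. From each list, up to 2 called genes per direction and line, those with the largest change, were named. Genes and lists were chosen with earlier results of these data known. Precision is limited by the number of arrays. Alternatives covered the scale, the normalization, low values, unnamed clusters, the eBayes prior, the fold limit, the replicate block, a shared fit and each array left out. Figures were drawn with matplotlib 3.10.9 in Python 3.11.15.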

Additional observations from a re-analysis of the deposited data

Results flagged for a closer look

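The change with resistance differed between lines by a test of the difference itself (limma, adjusted p under 0.05 and over 1.5-fold) for 5 genes between NCI-H520 and SJCRH30. As log2 change in NCI-H520 minus that in SJCRH30, the differences were RPA3 (1.27), PCNA (2.77), RFC1 (1.68), RFC5 (1.87) and FEN1 (2.64). On a common scale, the change in Rh41 minus that in NCI-H520 differed for all 10 genes, by RPA1 (-1.19), RPA2 (-1.21), RPA3 (-1.38), PCNA (-2.99), RFC1 (-0.71), RFC2 (-1.61), RFC3 (-1.55), RFC4 (-0.79), RFC5 (-1.33) and FEN1 (-3.69). The change in Rh41 minus that in SJCRH30 differed for 7 genes, by RPA1 (-1.29), PCNA (-0.73), RFC1 (0.66), RFC2 (-1.25), RFC3 (-1.26), RFC4 (-1.24) and FEN1 (-1.54). FEN1 and PCNA had the largest differences between NCI-H520 and each of the other lines. No gene had an array that stood apart among the 5 resistant Rh41 arrays by Dixon's test.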

How the results depend on the processing

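The counts of genes past the threshold in NCI-H520 and SJCRH30, of differences between lines and of parental differences stayed within 1.5 times under every alternative run. With each array left out in turn they were 7 to 9 in NCI-H520, 5 to 6 in SJCRH30, 1 in Rh41, 5 to 6, 9 to 10 and 5 to 7 for the differences NCI-H520 with SJCRH30, Rh41 with NCI-H520 and Rh41 with SJCRH30, and 8 for the parental lines. In Rh41 the count of 1 became 4 on the scale of the other set, 3 with all arrays quantile-normalized together and 3 with an adjusted p alone. The limma adjusted p of PCNA and RFC4 was 0.0201 and 0.0128 on the deposited scale, with changes under 1.5-fold, so both passed without the fold limit. With joint normalization RFC4 and RPA3 were added, and on the scale of the other set PCNA as well. Why the scales differ was not tested. On the scale of the other set the subunit shifts became 0.64 and 1.10 for RPA1 minus RPA2 and minus RPA3 in SJCRH30, 0.94 and 0.75 for RPA1 and RPA2 minus RPA3 in Rh41, 0.26 for RPA2 minus RPA3 in NCI-H520, and -0.39 and -1.02 for the RFC1 balance in NCI-H520 and SJCRH30. The change of RPA1 in Rh41 turned sign to 0.00070 on that scale and to 0.00013 with joint normalization, and ran from -0.024 to 0.029 with an array left out. That of RFC5 in Rh41 ran from -0.026 to 0.045, and the RPA1 difference between NCI-H520 and SJCRH30 from -0.28 to 0.041. With the replicate number of the labels as a replicate block the counts were 8, 5 and 1 in NCI-H520, SJCRH30 and Rh41, and 6, 10 and 5 for the differences in the order above. In that fit RPA2 gained a call between NCI-H520 and SJCRH30 (adjusted p = 0.0189), PCNA and RFC1 lost theirs between Rh41 and SJCRH30 (adjusted p = 0.0625 and 0.0703), and resistant replicates 4 and 5 of Rh41 added nothing to the changes. Deviations of arrays with the same number correlated at 0.044 to 0.11, -0.015 to 0.12 and -0.18 to 0.28 in the 3 lines, so the numbers were not taken to pair the arrays, although in NCI-H520 each array correlated best with its own number. After rescaling to the spread of Rh41 the value was under 1.5-fold for RFC5 between the parental lines (0.46), for RFC4 (-0.53) and RFC1 (-0.47) between Rh41 and NCI-H520, and for PCNA (-0.49) and RFC1 (0.43) between Rh41 and SJCRH30.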
